A study of Drosophila melanogaster with 2 samples.

Results

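In the Drosophila melanogaster ovary, 706 of 6723 binding sites of CG17801 lay in autosomal introns a short way from a transcription start site (TSS). The 6723 are the authors' list of peaks that passed a filter on the irreproducible discovery rate (IDR), which keeps peaks that rank alike in both replicates. A site was counted by its summit, the position of highest signal in the peak, and qualified when the summit was over 250 and up to 1500 bp from the nearest annotated TSS, inside a gene and in no annotated exon. The 706 sites were 10.5% of the list (95% Wilson interval 9.79% to 11.3%), 13.4% of its 5260 autosomal summits and 35.5% of its 1990 autosomal intronic summits. Arm 2L held 171 of them, arm 2R 159, arm 3L 168, arm 3R 206 and chromosome 4 the other 2. The study profiled ovaries of adult females of unknown age by ChIP-seq, in 2 biological replicates of 1 group, numbered 1 and 3. The flies were of the CG17801-GFP strain: they carried CG17801 tagged at its C-terminus with GFP, inserted by site-specific recombination, and the precipitation used an antibody against GFP. The labels do not give the promoter that drives the fusion, and 1 strain was profiled. No control or other factor was analysed here, so these sites cannot be told apart from sites that GFP fusions in general may occupy in ovary.

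CG17801 belongs to the ZAD family, zinc finger proteins of insects in which an N-terminal domain mediates protein interaction and an array of zinc fingers contacts DNA. In flies, as in other animals, the introns that follow a start site often hold enhancers and alternative promoters, so that a site inside a gene can lie downstream of one start site and upstream of another. Genes of the ovary are read in germline cells, which become nurse cells and the oocyte, and in the follicle cells that surround them. A peak in whole ovary does not say which of these cells it came from.

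Of the 25 strongest sites 19 had 70% or more A and T within 50 bp of the summit, a base composition that recurs in the results. The sequences of 6 of the 25 are shown here. Among them ush (66.3%) and Cat (57.4%) lay below 70%. Each line gives the gene that holds the site, the position in dm6 and the plus strand of NCBI RefSeq Release 6 from 75 bp before to 75 bp after the summit, with runs of at least 6 A or T in capitals.
CG11050, chr2L:6612624-6612774: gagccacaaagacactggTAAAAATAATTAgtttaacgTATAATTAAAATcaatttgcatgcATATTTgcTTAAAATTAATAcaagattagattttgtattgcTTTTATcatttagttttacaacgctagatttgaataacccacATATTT
Lk6, chr3R:11760974-11761124: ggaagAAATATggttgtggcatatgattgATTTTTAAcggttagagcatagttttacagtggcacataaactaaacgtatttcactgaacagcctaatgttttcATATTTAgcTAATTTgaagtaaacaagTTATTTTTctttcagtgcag
Cat, chr3L:18822849-18822999: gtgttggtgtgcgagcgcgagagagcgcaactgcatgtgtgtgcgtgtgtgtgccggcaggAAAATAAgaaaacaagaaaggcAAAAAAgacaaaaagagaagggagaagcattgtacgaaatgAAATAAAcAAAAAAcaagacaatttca
ush, chr2L:480982-481132: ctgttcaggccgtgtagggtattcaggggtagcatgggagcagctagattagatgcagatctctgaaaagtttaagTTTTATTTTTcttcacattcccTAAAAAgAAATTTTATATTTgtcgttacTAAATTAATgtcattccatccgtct
CG9663, chr2L:3302331-3302481: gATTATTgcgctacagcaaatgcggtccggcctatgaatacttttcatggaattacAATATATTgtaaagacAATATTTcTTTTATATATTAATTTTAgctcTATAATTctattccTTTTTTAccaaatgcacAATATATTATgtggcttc
hng3, chr3L:738803-738953: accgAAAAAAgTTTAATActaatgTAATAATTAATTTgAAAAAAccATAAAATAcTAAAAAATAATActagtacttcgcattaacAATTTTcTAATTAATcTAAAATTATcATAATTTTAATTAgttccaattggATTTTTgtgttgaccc

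Some sites held the GAGA motif within 50 bp of the summit, the letters GAGAGAG read on either strand, to which GAGA factor (Trl) binds. The Cat sequence printed above has these letters too, but farther than 50 bp from the summit, so Cat is not counted among them. Sites on 3R are printed with 50 bp to either side of the summit, in order of signal (500.1, 428, 305 and 261), with the motif, or the full repeat it is part of, in capitals.
Lk6, chr3R:11761198-11761298: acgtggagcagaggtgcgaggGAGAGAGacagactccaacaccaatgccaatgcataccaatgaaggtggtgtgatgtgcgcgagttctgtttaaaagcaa
CG1943, chr3R:7075792-7075892: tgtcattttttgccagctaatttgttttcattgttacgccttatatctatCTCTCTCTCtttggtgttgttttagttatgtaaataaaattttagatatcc
CG31523, chr3R:4478280-4478380: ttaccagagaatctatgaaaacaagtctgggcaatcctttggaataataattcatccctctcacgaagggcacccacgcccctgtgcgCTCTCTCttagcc
CG6231, chr3R:19623768-19623868: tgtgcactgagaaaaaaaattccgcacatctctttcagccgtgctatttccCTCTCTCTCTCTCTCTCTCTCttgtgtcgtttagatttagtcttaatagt

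The DRE, the letters TATCGATA bound by DREF and by the insulator protein BEAF-32, is a motif of housekeeping promoters in flies. It was in 2 of the 706 sites (0.283%), near the 0.204% of equally long windows over all sequence that met the rule. Both are shown with 50 bp to either side of the summit and with the DRE in capitals. The site in cnc, which encodes the fly Nrf2 protein, had a signal of 593, and the site in Atg17, an autophagy gene, had a signal of 149.
cnc, chr3R:23190071-23190171: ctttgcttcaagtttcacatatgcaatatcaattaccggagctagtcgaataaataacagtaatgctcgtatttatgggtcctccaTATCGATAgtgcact
Atg17, chr3R:5670983-5671083: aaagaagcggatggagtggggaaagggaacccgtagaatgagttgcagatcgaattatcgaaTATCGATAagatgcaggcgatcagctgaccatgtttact

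The strongest site lay in CG11050 at chr2L:6612699, in the second intron and 1012 bp downstream of its TSS. Its signal was 4011 in the IDR list, 1746 in replicate 1 and 2292 in replicate 3, where it ranked 2 and 1 among 30000 peaks each. The signal is the authors' own peak value, used only to describe and rank within a list. In no other site of the group did the signal reach that level: the next was 1663 in Lk6, a kinase that phosphorylates the translation initiation factor eIF4E, 970 bp upstream of a Lk6 TSS (ranks 44 and 25). The site in Cat, which encodes catalase, had 1649.9 and lay 320 bp downstream of its TSS (ranks 63 and 19). A site in ush, which encodes a cofactor of GATA factors, had 1556 and was closer to a TSS of cbt, a zinc finger gene, 1369 bp away (ranks 27 and 50). CG9663 had 1491, HmgZ, an HMG box chromatin protein gene, had 1455, and hng3 had 1452. All 25 strongest sites were found in both replicates, and none of them ranked below 314 in replicate 1 or 248 in replicate 3.

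The remaining 18 of the 25 had signals from 757 to 1252 and lay in genes of varied function. CG6330 (1252) and CG6287 (1168) came next. They were followed by larp (1143), which encodes an RNA-binding regulator of translation, and papi (1142), a Tudor protein gene of the piRNA pathway. The signal was 1079 in hoe1, 1028 in CG31612 and 1008 in chif, which is needed for amplification of the eggshell genes in follicle cells. It was 973 in Mhcl, a myosin gene, 927 in for, the cGMP-dependent kinase of foraging, and 898 in simj, a subunit gene of the nucleosome remodelling complex NuRD. CG4496 had 888, Cyt-c-p, a cytochrome c gene, had 868, aru had 863 and Adf1, a transcription factor gene, had 849.5. The last were CG42327 (835), Eip63E (823), an ecdysone-induced cyclin-dependent kinase gene, KCNQ (779.7), a potassium channel gene whose site was nearer to a TSS of mlt, and tai (757), a coactivator of the ecdysone receptor. In 23 of the 25 the site was in a first intron, and in 11 the nearest TSS had a promoter peak of its own.

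Over all 706 sites the signal ran from 117 to 4011, with a median of 184 and quartiles of 139 and 289.9. The median site stood at percentile 52.1 of the IDR list, so the group was spread over the whole range of strength. The median percentile was 50.6 for the 3843 summits within 250 bp of a TSS (promoter summits), 43.1 for the 798 autosomal intronic summits over 1500 bp away, and 61.7 for the 244 intronic summits of X at the same distances. The group was 10.5% of the whole list. It supplied 12 of the strongest 100 summits (7.00% to 19.8%), 72 of the strongest 500 (14.4%, 11.6% to 17.7%) and 132 of the strongest 1000 (13.2%, 11.2% to 15.4%). Signal hardly varied with distance from the TSS (Spearman rho -0.0635 over 706 sites of the same 2 libraries, given as a description).

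Both replicates placed a summit within 100 bp of 650 of the 706 sites (92.1%, 95% Wilson interval 89.8% to 93.8%), against 93.3% over the whole IDR list. Replicate 1 alone matched 21, replicate 3 alone matched 35, and 0 had no match in either. The IDR list was made from these replicates, so the match is not independent support. Of the 364 sites among the 3361 strongest summits of the list 96.7% were in both, and of the other 342 sites 87.1%. The median offset was 22 bp to the summit of replicate 1 and 10 bp to that of replicate 3. The ranks of the 650 sites in the 2 replicates had a Spearman rho of 0.656, and 192 of them (29.5%) differed by over 2 times in rank. The largest differences were at dbo, ranked 18635 in replicate 1 and 1235 in replicate 3, at Rgl, an exchange factor for Ral (11502 and 783), and at the second site of hoe1 (21966 and 1733). In each of these 3 the site ranked higher in replicate 3.

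**Figure D1:**
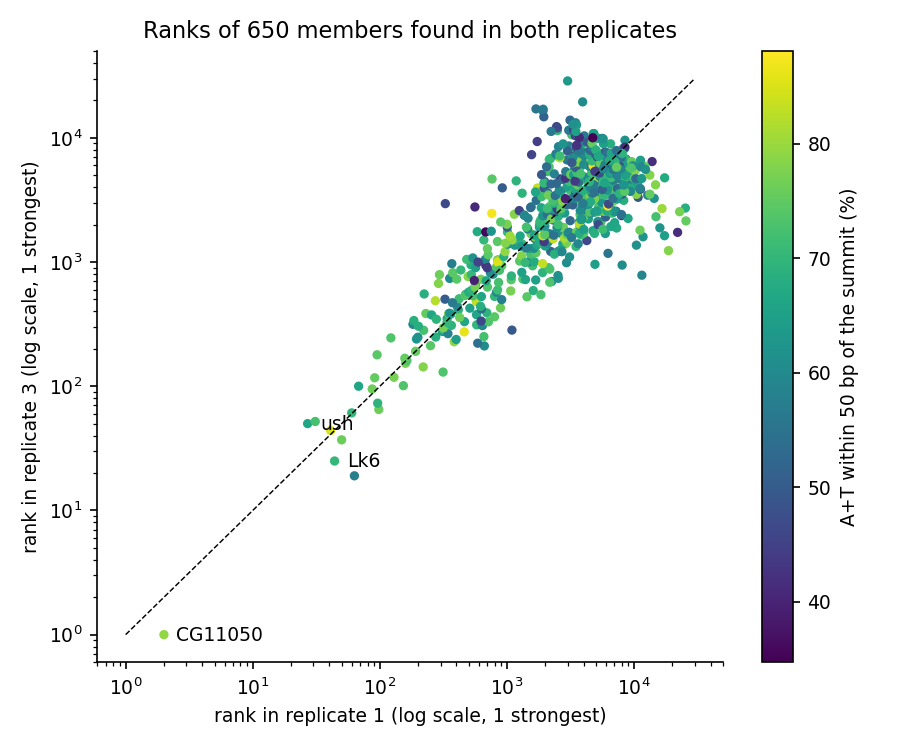
Rank of each of the 650 sites found in both replicates, in replicate 1 (x axis) and replicate 3 (y axis), both on log scales with 1 the strongest; colour gives the A+T content within 50 bp of the summit and the dashed line marks equal ranks. CG11050 stands at ranks 2 and 1, and the spread about the line is widest beyond rank 1000.

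Sites of this kind were denser close to start sites. Autosomal introns held 8.47 Mb at over 250 to 1500 bp from a TSS, 7.67% of autosomal sequence, and 83.4 sites per Mb of it (95% Poisson interval 77.4 to 89.8). All autosomal IDR summits together came to 47.7 per Mb of autosome. The density was 97.5 per Mb at over 250 to 500 bp (83.8 to 113), 90.6 up to 750 bp, 88.2 up to 1000 bp, 69.6 up to 1250 bp and 65.8 up to 1500 bp (53.3 to 80.3). Farther out it went on falling, from 47.7 between 1500 and 2000 bp to 23.2 between 5000 and 10000 bp and 9.51 beyond. The 1500 bp limit thus cut a gradient and not a gap. The 6723 strongest peaks of replicate 1 gave 719 such sites (84.9 per Mb) and those of replicate 3 gave 724 (85.5 per Mb). By chromosome arm, the density was 91.4 per Mb on 2L (78.3 to 106), 80.2 on 2R, 80.1 on 3L and 85.9 on 3R, with overlapping intervals. It was 16.9 on chromosome 4 (2.05 to 61.2), whose 2 sites were weak ones in Mitf (140) and Pur-alpha (137), named after their values were seen, and 122 per Mb (107 to 138) for the same class of site on X.

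**Figure D2:**
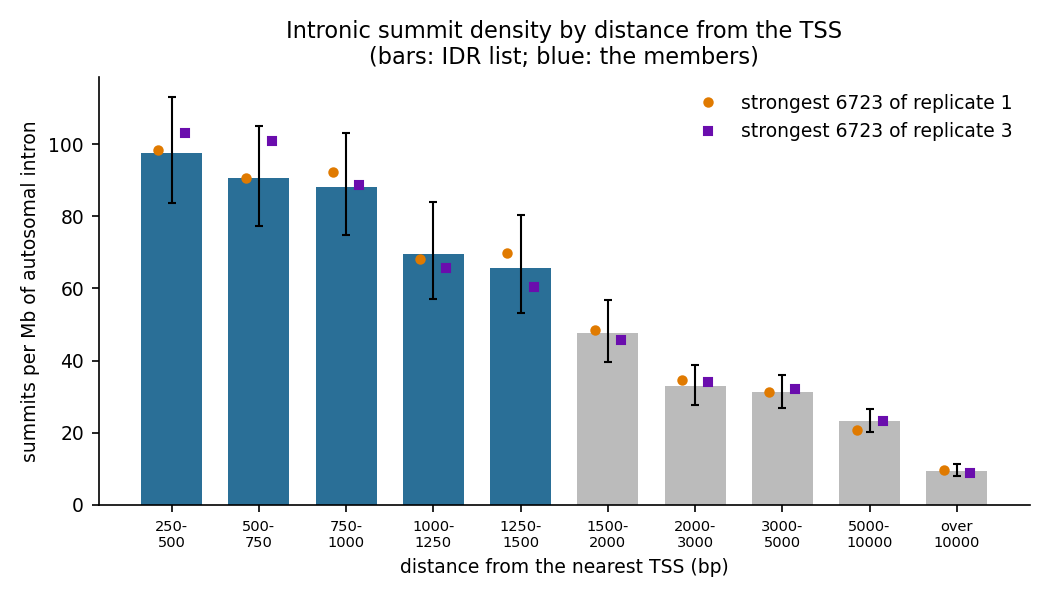
Summits per Mb of autosomal intron (y axis) by distance from the nearest TSS in bp (x axis); bars are the IDR list with 95% Poisson intervals, circles and squares the equally long lists of the strongest peaks of replicate 1 and replicate 3. The blue bars, which hold the 706 sites, fall from 97.5 to 65.8 per Mb, and the grey bars beyond 1500 bp fall to 9.51.

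At the limits of the rule, the sites just inside were those of magu, 1 bp past the limit of 250 bp (signal 134), and RapGAP1, a GTPase-activating protein gene for Rap1, at 253 bp (710.2), and at the far end gukh at 1496 bp (318) and CG10939 at 1495 bp (344). The intronic summits just outside were those of Syp (1569.6) and ReepA (348), both at 250 bp, of for at 1501 bp (129) and of SNF4Agamma, a subunit gene of AMP-activated kinase, at 1507 bp (184). A summit in Syp with a signal near that of the second strongest site was left out by 1 bp.

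The side of the TSS on which a site lay differed with distance. Over the whole group 416 of 706 sites (58.9%, 55.3% to 62.5%) were downstream of the nearest TSS, close to the 62.3% of eligible bases that are. Within 500 bp, however, 130 of 181 sites were upstream and 51 downstream, 28.2% (22.1% to 35.1%), where 55.3% of eligible bases are downstream. Beyond 500 bp the downstream share was 65.3%, 74.3%, 70% and 68.8% in the successive bins of 250 bp, against 61.8% to 65.8% of bases. The strongest peaks of each replicate gave 32.8% and 29.2% downstream in the nearest bin, for replicates 1 and 3, and at least 62.5% in each of the others up to 1500 bp. Of the 290 upstream sites 202 faced a TSS of a gene that contained them, an internal alternative start, and 88 faced a TSS of another gene. Downstream, 396 followed a TSS of a gene that contained them and 20 that of another gene.

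Within genes the sites were mostly in first introns. A first intron held 582 of 706 (82.4%, 79.5% to 85.1%), against 68.3% of eligible bases, and the share was 83.3% and 82.5% in the strongest peaks of replicates 1 and 3. An intron that precedes the coding sequence held 55.8% (52.1% to 59.4%), against 47.0% of bases. The introns had a median length of 3668 bp, and 38 sites (5.38%) were under 100 bp from a splice site. Neither value has a counterpart over eligible bases here, so both describe the sites alone. The strongest site was in a second intron, of 140 bp. Repeats marked by soft-masking covered the summit in 24.4% of sites (21.3% to 27.7%) and 18.7% of eligible bases.

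Start sites next to a site often had a promoter peak too. The nearest TSS had an IDR summit within 250 bp for 246 of 706 sites (34.8%, 31.4% to 38.4%), against 19.1% of eligible bases. Sites occurred at 152 per Mb (134 to 172) in eligible sequence whose nearest TSS had a promoter peak and at 67.2 per Mb (61.2 to 73.6) where it had none, and 460 sites had no such partner. The share was 45.4% (40.7% to 50.2%) for downstream sites, with 22.6% of downstream bases, and 19.7% (15.5% to 24.6%) for upstream sites, with 13.3% of upstream bases. It was lowest within 500 bp, where 29 of 181 sites (16%, 11.4% to 22.1%) had a promoter peak against 18.4% of bases. Summits in the list were never closer than 199 bp to each other. A site not far past 250 bp thus kept other summits out of part of the promoter window, a limit that bases do not have. This lowers the share in the nearest bin by an amount that was not tested, so its comparison with bases decides nothing. The share was 31.1% between 500 and 750 bp, 46.1% up to 1000 bp, 42.7% up to 1250 bp and 50% up to 1500 bp, while the share of bases stayed between 18.8% and 19.7%. Autosomal intronic summits farther out had it as well, so the pairing was not particular to the 706 sites. Their share was 48.0% at 1501 to 2000 bp, 49.6% up to 3000 bp, 42.5% up to 5000 bp, 53.7% up to 10000 bp and 44.0% beyond. The shares of bases in these bins were 18.7%, 18.2%, 17.8%, 17.5% and 9.85%. With a promoter window of 100 bp the share over all sites was 19.1%, against 11.2% of eligible bases. With one of 500 bp it was 61.9% against 23.5%, but there the 181 sites within 500 bp count as their own promoter peak, and over the other 525 sites it was 48.8% (44.5% to 53.0%) against 23.6%. Where both were present, the intronic site was the stronger in 124 of 246 cases (50.4%, 44.2% to 56.6%). At Lk6 the site had 1663 and the promoter peak 193, and at CG9663 they had 1491 and 140.3. Sites with and without a promoter peak had like signals, with medians of 187 and 179.6.

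Some sites came in close pairs. Another summit lay within 300 bp of 82 sites (11.6%, 9.46% to 14.2%), against 10.3% of all IDR summits, and in 56 of these cases the partner was itself one of the 706. The partner was 190 to 210 bp away in 62 of the 82, and 199 bp was the smallest gap between summits in the whole list, so the spacing is at the limit of what the list resolves. Lk6 is such a pair: its main site (1663) had 70.3% A+T within 50 bp, and the site 199 bp away (500.1), which carries the GAGA motif printed above, had 49.5%. The main site ranked 44 and 25 in the replicates and its neighbour 1093 and 283.

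Summits were richer in A and T than the sequence around them. The mean A+T content within 50 bp of the summit was 64.4% (SD 9.77, 706 sites), against 57.9% (SD 9.88) in windows 300 bp to either side and 61.3% (SD 9.39) over tiles of the same length that cover all eligible sequence. In 483 sites (68.4%, 64.9% to 71.7%) the summit exceeded the mean of its own flanks. The flanks were not limited to eligible sequence and may reach into exons or promoters, whereas the tiles cover eligible sequence. In windows of 25 bp to either side the content rose from 57.9% at 300 bp to the left and 58.2% at 300 bp to the right to 65.0% at the summit. The mean was 64.3% in autosomal introns farther out, 65.2% in X introns at the same distance and 64.5% in intergenic summits. It was 60.8% in promoter summits and also 60.8% in exonic summits away from promoters. The strongest peaks of replicate 1 gave 63.1% and those of replicate 3 gave 65.2%.

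**Figure D3:**
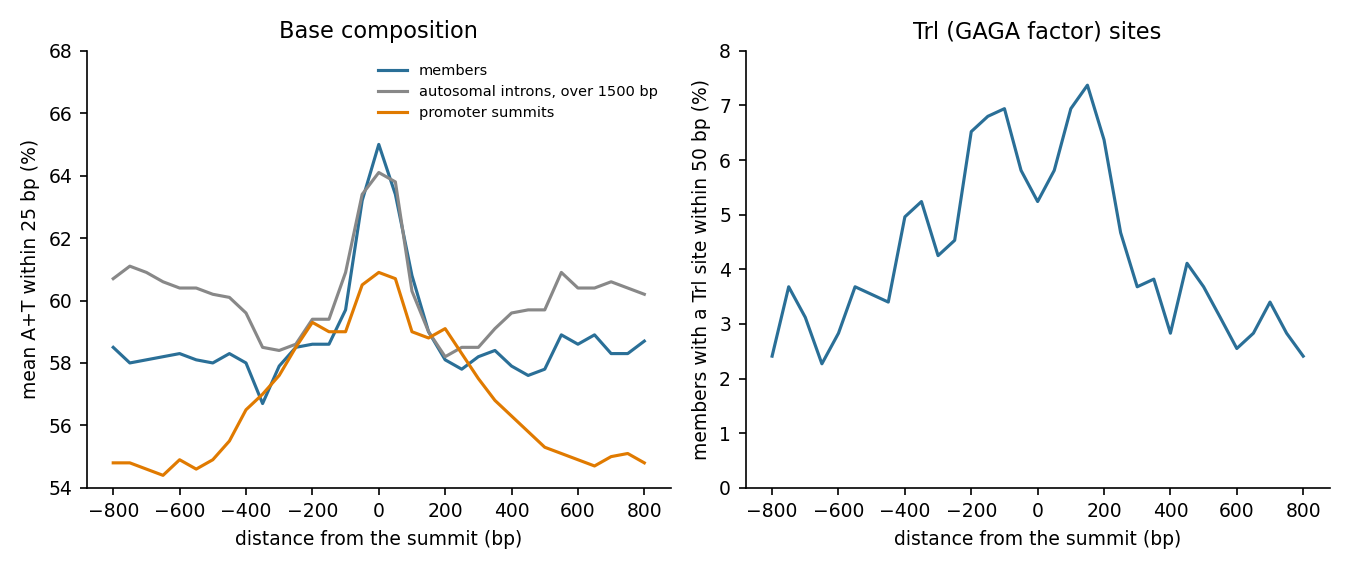
Left, mean A+T in windows of 25 bp to either side (y axis, %, not starting at 0) by distance from the summit in bp (x axis), for the 706 sites, the 798 autosomal intronic summits farther from a TSS and the 3843 promoter summits; right, share of the 706 sites with GAGAGAG on either strand in windows of 50 bp to either side (y axis, %) by distance from the summit. A+T peaks at the summit at 65.0%, and the GAGA share is 5.24% at the summit and reaches 7.37% at 150 bp to the right.

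Stronger sites had a higher mean A+T content. Cut into 4 groups by signal, the mean was 68.2% in the strongest 177 (signal 291 to 4011), 64.8% in the next 177, 63.0% in the 176 after these and 61.4% in the weakest 176 (117 to 138). The 25 strongest averaged 72.6%, with a range of 57.4% to 85.1%, and 19 of them had 70% or more. The highest was hng3 and the lowest was Cat. Spearman's rho of signal with A+T was 0.282 over the 706 sites, and 0.252, 0.218 and 0.231 over autosomal introns farther out, X introns at the same distance and promoter summits. The sites share 2 libraries, so these correlations are descriptions, and the part of base composition in the signal was not tested. The A-rich letters AAATAAA, on either strand, were in 20.4% of the sites, 12.2% of tiles, 11.6% of flanks and 16.3% of promoter summits. They were picked as the first of a list of 7-letter words drawn from these same sites. Their excess in the sites is therefore no independent result.

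The DRE and motif 1, motifs of fly promoters, were in few or none of the sites. Each motif was searched on both strands within 50 bp of the summit, and the share of sites was set beside that of the 71727 tiles that cover all eligible sequence. The DRE was in 2 sites (0.283%, 0.0777% to 1.03%), against 0.204% of tiles and 5.05% of promoter summits. Motif 1, the letters GGTCACACT bound by M1BP, was in 0 of 706, which allows a share of up to 0.425% at 3 counts and 0.541% by the Wilson bound, against 0.0376% of tiles and 2.89% of promoter summits. CGATA, a core site of BEAF-32 and part of the DRE, was in 9.92% (7.92% to 12.3%), near the 11.0% of tiles and below the 24.6% of promoter summits. Of 25 motifs searched, the tile share lay within the interval of the sites for 22, and the exceptions were the GAGA motif, the GATA factor letters and the TATA box. The promoter share lay within it for 10.

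The GAGA motif was in 37 sites (5.24%, 3.83% to 7.14%), against 1.78% of tiles, 3.97% of flanks and 2.94% of promoter summits. Among autosomal intronic summits farther out it was in 3.51% (2.44% to 5.02%). Among X intronic summits at the same distances it was in 2.46% (1.13% to 5.26%), and both intervals overlap that of the sites. It was in 4.31% and 3.31% of sites among the strongest peaks of replicates 1 and 3. The motif was not most common at the summit: its share was 6.94% at 100 bp to the left, 5.24% at the summit, 7.37% at 150 bp to the right and 2.41% at 800 bp on either side. The share depended on the window, at 2.41% within 25 bp of the summit and 11.0% within 100 bp. None of the 25 strongest sites held the motif, and the share was 2.82% (1.21% to 6.44%) in the strongest 177 and 7.95% (4.80% to 12.9%) in the weakest 176. AGATAA, the letters bound by GATA factors, was in 10.3% of sites (8.30% to 12.8%), against 7.32% of tiles, 6.59% of flanks and 5.41% of promoter summits. It was in 8.15% of autosomal intronic summits farther out, 8.15% of intergenic summits and 4.51% of X intronic summits at the same distances. The strongest peaks of replicate 1 gave 8.34%, nearer to the tiles, and those of replicate 3 gave 10.1%. The TATA box letters TATAAA were in 19.7% (16.9% to 22.8%), against 15.3% of tiles, and in 21.3% of autosomal intronic summits farther out. For TATAAA the strongest peaks of replicates 1 and 3 gave 16.8% and 19.6%. These last motifs are themselves rich in A and T, and no correction for base composition was made.

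**Figure D4:**
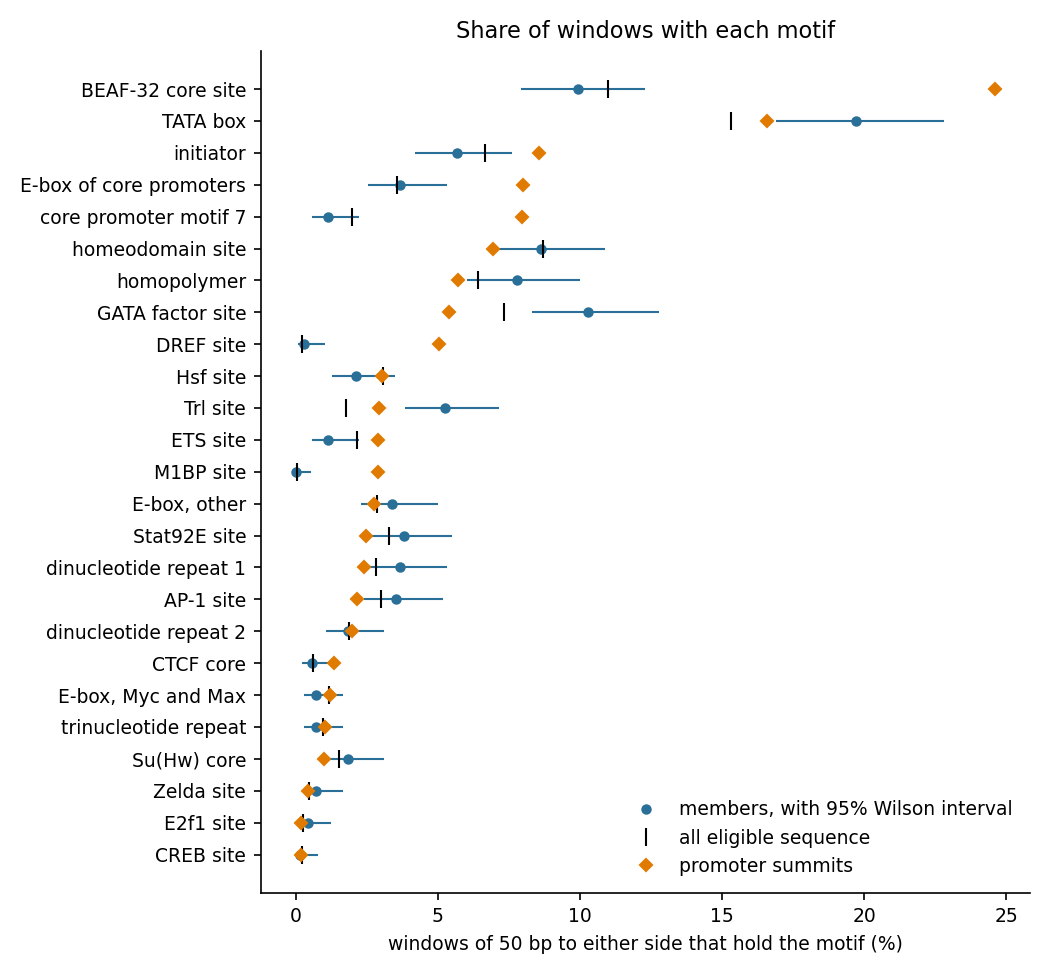
Share of windows of 50 bp to either side of the summit that hold each of 25 motifs (x axis, %), named by the factor or element (y axis), for the 706 sites with 95% Wilson intervals (blue), all tiles of eligible sequence (black) and promoter summits (orange). The DREF site stands at 0.283% in the sites, near the 0.204% of tiles, and at 5.05% at promoters. The M1BP site stands at 0 in the sites, 0.0376% of tiles and 2.89% at promoters. The Trl site stands at 5.24% in the sites, 1.78% of tiles and 2.94% at promoters.

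The 706 sites lay in 555 host genes, 6.05% of the 9170 genes with any eligible sequence. The host is the gene around the site whose own TSS is nearest, and 699 sites had a protein-coding host. Hosts were long, with a median length of 13122 bp over sites, and held a median of 2453 bp of eligible sequence where the median over all 9170 genes was 297 bp. Counts of hosts are therefore given beside a density per eligible Mb. A promoter peak at a TSS of their own was found in 63.2% of hosts and in 33.8% of all genes with eligible sequence. Hosts had a median of 2 TSSs and all these genes a median of 1, so a host had more start sites at which a peak could count.

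There were 113 genes with at least 2 sites, and together they held 37.4% of all sites. The most were in bun, a TSC22-type transcription regulator of the follicular epithelium, and in Svil, the supervillin gene, with 6 each. In bun the signals ran from 135 to 708 and 3 of the 6 were in both replicates, and in Svil they ran from 121 to 649 and all 6 were. There were 5 in shn, a zinc finger regulator of the BMP pathway (207 to 663), and 5 in Pgk, the glycolytic phosphoglycerate kinase. Pgk packed its 5 into 1957 eligible bp, between chr2L:2748844 and chr2L:2752042, with signals of 612, 438, 245, 145 and 125, and all 5 were in both replicates. The first lay 199 bp from another summit, the smallest gap in the list. It ranked 461 in replicate 1 and 274 in replicate 3 and had 86.1% A+T. By comparison bun spread its 6 over 15709 eligible bp. The genes lola, a BTB transcription factor gene, CG13868, EcR, the ecdysone receptor, and shep, an RNA-binding protein gene, had 4 each, and 3 sites each were in 16 genes, of which tai and plx are named by the highest signal of a site.

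The share of genes that were hosts varied between the gene lists, from 0 to 44.4%. The lists were chosen with earlier results known, overlap in some genes and are described without a test. The Poisson intervals treat sites as independent, although 37.4% of all sites were in genes with 2 or more. They may therefore be too narrow, and where a list's interval lies beside 83.4 per Mb is a description only. In the list of kinases and phosphatases 12 of 27 genes with eligible sequence were hosts, with 256 sites per Mb (154 to 399.6). They included Lk6, puc, the phosphatase that limits JNK signalling (656), and wnd, a kinase upstream of JNK (334). PDZ-GEF (419) was counted in that list too, with 2 sites in 1054 eligible bp, but it encodes an exchange factor for Rap. It is neither a kinase nor a phosphatase gene, and the values of the list were not recomputed without it. Among chromatin regulators 10 of 42 were hosts (214 per Mb, 117 to 358), among them psq, a BTB protein gene (512), lola (357), Utx, a histone demethylase gene (295), and Mi-2, a remodeller gene (276). Among genes of follicle cell patterning and migration 9 of 28 were hosts (183 per Mb, 112 to 283). Their strongest sites were in bun (708), jar, the myosin VI gene (674), puc (656) and Stat92E, the transcription factor of the JAK-STAT pathway (495). The intervals of these 3 lists lay above the 83.4 per Mb of all eligible sequence.

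The ecdysone response list had 8 hosts of 21 (161 per Mb, 92.0 to 262), with Eip63E (823), tai (757), ftz-f1, a nuclear receptor gene (337), and Eip75B, an ecdysone-induced nuclear receptor gene (272). The EGFR and Ras list had 4 of 19 (199.9 per Mb, 86.3 to 394): pnt, the ETS factor at the end of the pathway (327), drk, its adaptor (285), spi, a ligand of the receptor (193), and cic, a repressor that the pathway relieves (129). Of the germline and RNA regulators 13 of 36 were hosts (125 per Mb, with a lower bound of 73.1), led by mub (528), bru1, the translational repressor Bruno (423), nanos (385) and pum (384), which encode partners in translational repression. The BMP list had 3 of 15 (172 per Mb, 69.1 to 354), shn (663), wit, a type II receptor gene (221), and Mad, the pathway's Smad (167). The JAK-STAT and Hippo list had 5 of 17 (169 per Mb, 54.9 to 395), with Stat92E (495), mats (229.8) and wts (132), which form a kinase complex of the Hippo pathway, and app (125). The intervals of the ecdysone and EGFR lists lay above 83.4, and those of the germline, BMP and JAK-STAT lists included it. In the EGFR list pnt and spi held 3 sites each of its 8, and the interval makes no allowance for such sharing of a gene.

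In the lists that follow the interval included the density of all eligible sequence, except in neuronal genes, where it lay below. These intervals too treat sites as independent. The Notch list had 4 hosts of 18 (127 per Mb, 41.3 to 297), mam, a coactivator (375), neur, a ubiquitin ligase (163), numb, an inhibitor of the receptor (159), and Nedd4 (142). Small GTPase regulators had 7 of 21 (73.0 per Mb, 29.4 to 151), with dia, a formin (298), Rho1 (218), siz (179.9) and, between these in signal, pbl, an exchange factor for Rho1. Insulin, TOR and growth genes had 2 of 20 (88.0 per Mb, 18.2 to 257), the receptor gene InR (153) and the kinase gene Akt (126). The Wnt and Hedgehog list had 1 of 19, the Wnt receptor gene fz2 (128), and 28.3 per Mb (0.717 to 158). Of the neuronal and synaptic genes 1 of 26 was a host, fru (122), in 78.2 kb of eligible sequence, and the density of 12.8 per Mb had an interval of 0.324 to 71.2. That site was found in replicate 3 (rank 5044) and had no summit of replicate 1 within 100 bp. Promoter peaks at an own TSS were also rare in that list, at 1 of 26 genes, against 33.8% of all genes with eligible sequence. The chromatin list had them at 34 of 42 genes and the kinases and phosphatases at 19 of 27.

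Lists of genes with little intronic sequence near a TSS could show little. The cytosolic ribosomal protein genes had 0 hosts of 35, which allows a share of up to 8.57% at 3 counts, in 6.21 kb of eligible sequence (interval up to 594 per Mb), although 34 of the 35 had a promoter peak. Heat shock and chaperone genes had 1 of 10, Hsp83, the Hsp90 gene (377), and cuticle, chemosensory and other silent genes had 0 of 13, which allows up to 23.1% at 3 counts, in 4.32 kb.

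**Figure D5:**
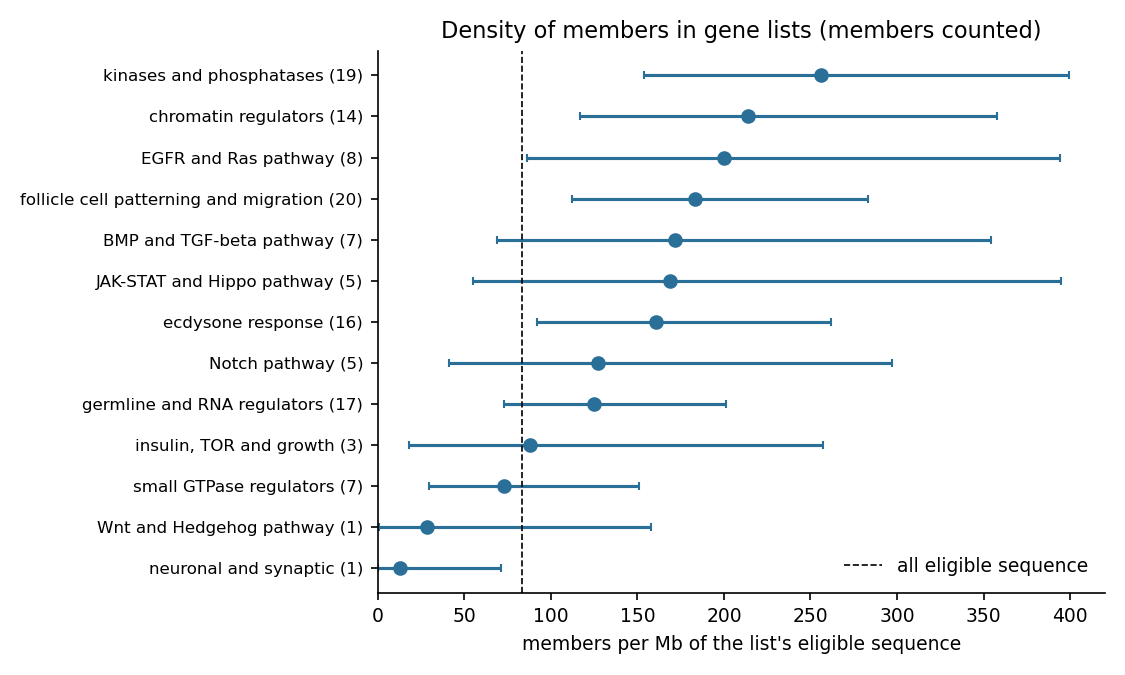
Sites per Mb of each list's eligible sequence (x axis) with 95% Poisson intervals, for the 13 gene lists with over 10 kb of it (y axis, with the number of sites in brackets); the dashed line is the density over all eligible sequence. The list of kinases and phosphatases, which also counts the exchange factor gene PDZ-GEF, stands highest at 256 per Mb. Neuronal and synaptic genes stand lowest at 12.8 per Mb. The intervals treat sites as independent, although some share a gene.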

How the data were processed

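The authors deposited 4 narrowPeak lists on dm6. Per the file headers (text descriptions beside the lists), replicate peaks were called from 1 alignment and a control file, and IDR peaks were derived from the replicate and pooled peaks. Aligner and caller were not given in the sources used here. Each signal value is as the authors deposited it, in a unit that no source names. The deposited −log10 q-values were constant over the IDR list and not used. The deposited summit offset, recorded as a score, is the distance in bp from the peak's start. Peak lists do not give the depth of each sample, so intervals cover the counting of peaks only.

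Summits were placed with the Ensembl release 115 annotation of the same arms, without annotated transposable elements, and windows were read from NCBI RefSeq Release 6. Eligible sequence is every autosomal base that meets the rule. Shares have 95% Wilson intervals and densities exact 95% Poisson intervals, and a count of 0 has a limit of 3 counts. No chance test was made: the design has 1 group, and sites are not replicates. Results were set beside all eligible sequence, other classes of summit and the strongest 6723 peaks of each replicate. The tools were numpy 2.4.6 and pandas 2.3.3 in Python 3.11.15, with scipy 1.17.1 for intervals and matplotlib 3.10.9 for plots, and the scripts were tested on simulated data.

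The members, the 16 gene lists and the 25 motifs were chosen with earlier results of these data known. After a first count of hosts had been seen, 10 symbols were renamed to those of the annotation, which made nanos a host, and duplicates were dropped. Named genes are hosts of the 25 strongest sites, up to 4 hosts of highest signal per list, 10 hosts with most sites (the last 2 from a tie), the 3 sites whose ranks differ most between replicates and 2 summits on each side of each limit. Sequences are from strong sites and from sites with the motifs described, some chosen after their values were seen. Alternatives varied the list, the replicate, the distances, the TSSs and the windows.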

Additional observations from a re-analysis of the deposited data

How the results depend on the processing

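Of 80 alternative values of shares, densities and means, 59 lay within the interval of the reported value and 21 outside it. Of 8 alternative numbers of sites, 7 were within 1.5 times the reported 706, the lowest of them 525 with a lower limit of over 500 bp. Leaving out replicate 1 or replicate 3, with the strongest peaks of the other, gave a share matched in the replicate left out of 85.8% to 86.3% where 92.1% of sites were in both, and a mean A+T of 63.1% to 65.2% where 64.4% was reported. With the 3361 strongest summits of the list, fewer by construction, there were 364 sites at 43.0 per Mb and 3.33% of genes as hosts. Of these sites 96.7% were in both replicates, their mean A+T was 66.3% and 22.3% had a promoter peak at the nearest TSS. Promoter peaks were taken from the same 3361 summits, so the 22.3% is also lower by construction. A matching distance of 50 bp gave 71.0% in both replicates and one of 200 bp gave 99.3%. The lower limit of over 500 bp gave 69.5% downstream and 41.3% with a promoter peak. Promoter windows of 100 and 500 bp gave 19.1% and 61.9% with a promoter peak. The density was 90.1 per Mb with TSSs of protein-coding genes only, and 76.0 per Mb with transposable elements counted as genes, an alternative chosen after seeing the data. A window of 100 bp to either side gave 63.2% A+T. The GAGA motif was in 2.41% of sites within 25 bp of the summit, 11.0% within 100 bp and 3.31% without replicate 1. No paired analysis was possible because there is 1 group. Peak lists without read totals or a control limit what strength and absence of a peak can show.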

Other observations

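The promoter-peak share was nearly level over the strength of the sites. In 4 groups cut by signal, from strongest to weakest, 36.7%, 35.6%, 34.1% and 33.0% of sites had a promoter peak at the nearest TSS. CGATA varied more, at 9.04%, 4.52%, 11.4% and 14.8% in the same order, with intervals of 2.31% to 8.66% in the second group and 10.3% to 20.8% in the weakest. It was in 11.8% of downstream and 7.24% of upstream sites, with overlapping intervals of 9.03% to 15.2% and 4.78% to 10.8%.

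Noncoding genes supplied some of the nearest start sites. By gene name, the nearest TSS was that of a lncRNA gene for 41 sites, of an antisense RNA gene for 14, of a snoRNA gene for 6, of a tRNA gene for 5 and of a miRNA gene for 3, and it was that of a protein-coding gene for 637. Examples among the named hosts are EcR, whose strongest site (248) was 1445 bp from a tRNA gene start, and lola, with a site (158) that lay 714 bp from the start of a snoRNA gene inside it.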
